A study of Mus musculus with 12 samples.

Results

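MHC class I molecules display peptides from inside the cell to CD8+ T cells. A class I molecule is a heavy chain (here the classical chains H2-K1 and H2-D1) held together with B2m, beta-2 microglobulin, and a short peptide. The peptides are cut by the proteasome, pumped into the endoplasmic reticulum by the transporter Tap1/Tap2 and loaded with the help of tapasin, the product of Tapbp. In cells exposed to interferons the catalytic subunits Psmb8, Psmb9 and Psmb10 take the places of Psmb5, Psmb6 and Psmb7 and turn the proteasome into the immunoproteasome, and Nlrc5 is the transactivator that drives many class I genes. These 10 genes, H2-D1, H2-K1, B2m, Tap1, Tap2, Tapbp, Psmb8, Psmb9, Psmb10 and Nlrc5, were chosen by name from 41325 genes, and all 10 have a row in both deposited tables. Microglia, the resident macrophages of the brain, carry class I at low levels at rest and more of it when activated.

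The cells were IMG cells, a line of immortalised mouse microglia. All 12 libraries came from wild type cells of C57Bl6/J origin and of a single passage, exposed for 8 h to oAb (4 libraries), to fAb (4 libraries) or to a scramble control (4 libraries). Both oAb and fAb are preparations of amyloid beta, the peptide that aggregates in Alzheimer's disease. The series' design text calls oAb fibrillar and fAb oligomeric, which is not how the abbreviations read, so the groups are named here by their labels only, and their dose is not stated in the labels. The labels do not say that replicates were separate cultures, so the p-values measure the spread between these libraries, which may be technical. RNA was measured with a stranded mRNA kit in bulk, and in bulk RNA fewer expressing cells and less RNA per cell cannot be told apart.

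Each library held between 13638721 and 18124419 gene counts. The microglial and macrophage identity was present in every group. All 12 of its markers averaged over 1 TPM (transcripts per 1000000, a level scaled by gene length and depth) in each group, and their summed level ran over 16511 to 18665 TPM in oAb, 18153 to 19098 TPM in fAb and 18955 to 21122 TPM in scramble libraries. All 6 lymphocyte markers were at 0. Neuron markers summed to 1.90 to 2.31 TPM in oAb, 1.85 to 2.28 TPM in fAb and 0.139 to 0.716 TPM in scramble libraries, with Rbfox3, Snap25, Stmn2 and Syt1 at 0, and Map2 of this list was called higher with both treatments (edgeR adjusted p = 0.000259 for oAb and 0.000311 for fAb). Astrocyte markers summed to 0.354 to 0.695 TPM in oAb, 0.492 to 0.697 TPM in fAb and 0.244 to 0.327 TPM in scramble libraries. Fibroblast and endothelial markers summed to 0.519 to 0.835 TPM in oAb, 0.461 to 0.724 TPM in fAb and 0.139 to 0.478 TPM in scramble libraries. The oligodendrocyte list had 1 of 6 genes over 1 TPM, with Mobp and Mog at 0, and summed to 14.0 to 15.3 TPM in oAb, 15.7 to 16.7 TPM in fAb and 26.4 to 48.2 TPM in scramble libraries. The part of these other markers in the results was not tested. Scramble 3 stood apart, where ribosomal protein genes took 11.9% of the counts, beside 7.01% to 7.61% in scramble 1, 2 and 4. Mitochondrial transcripts took 2.73% to 3.37% of the counts in oAb, 2.73% to 2.94% in fAb and 4.18% to 4.94% in scramble libraries, and the part of this share in the results was not tested. A split of the libraries into 2 sets was seen at the near-identical pair Timm23 and Gm10273, whose counts lay mostly at Timm23 (94.6% to 98.3%) in oAb 1 and 2 and scramble 2, 3 and 4, and mostly at Gm10273 (17.5% to 38.5% at Timm23) in oAb 3 and 4, all 4 fAb libraries and scramble 1. These are called the Timm23 set (5 libraries) and the Gm10273 set (7 libraries); no label names them, and results are given within them where they move.

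The promoters of these genes were read for short motifs, apart from the RNA measurements. RefSeq windows of 300 bases, 250 before to 50 after the start on build GRCm38.p6, were at hand for 8 of the 10 genes, all but Tap2 and Nlrc5. They were searched on both strands for an interferon-stimulated response element (ISRE: GAAA, 2 further bases, GAAA; in 3.44% of 32851 windows), an interferon-gamma activated site (GAS, TTCNNNGAA, in 8.3%), a kappa B site (kB: GGG, 5 further bases, CC; in 50.79%) and the core of a cyclic AMP response element-like site (TGACGC, in 7.4%). Capitals mark the letters of every match, and kB matches on the 2 strands overlap one another in most of the windows below. The windows shown are those of the classical class I chains, of their partner, and of the members with the largest change or with a GAS match.
H2-K1, chr17:34000298-34000597, minus strand: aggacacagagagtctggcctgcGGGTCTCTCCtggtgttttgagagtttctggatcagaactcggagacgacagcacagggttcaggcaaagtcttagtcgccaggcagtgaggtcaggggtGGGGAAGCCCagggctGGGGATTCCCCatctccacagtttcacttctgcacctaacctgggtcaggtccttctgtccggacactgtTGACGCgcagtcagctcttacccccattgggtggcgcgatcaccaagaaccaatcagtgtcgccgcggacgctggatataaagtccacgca
H2-D1, chr17:35262844-35263143, plus strand: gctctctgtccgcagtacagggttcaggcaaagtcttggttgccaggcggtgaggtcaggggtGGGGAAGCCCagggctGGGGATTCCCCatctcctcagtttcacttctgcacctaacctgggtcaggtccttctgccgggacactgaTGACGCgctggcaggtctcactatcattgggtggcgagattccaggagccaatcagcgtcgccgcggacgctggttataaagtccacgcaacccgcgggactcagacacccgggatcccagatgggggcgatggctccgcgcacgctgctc
B2m, chr2:122147437-122147736, plus strand: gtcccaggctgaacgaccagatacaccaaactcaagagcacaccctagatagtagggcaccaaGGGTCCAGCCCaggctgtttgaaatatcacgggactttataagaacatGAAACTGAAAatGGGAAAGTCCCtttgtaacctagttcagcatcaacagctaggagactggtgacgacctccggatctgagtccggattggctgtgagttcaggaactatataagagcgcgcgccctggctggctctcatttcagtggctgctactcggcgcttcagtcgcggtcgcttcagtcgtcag
Tap1, chr17:34187306-34187605, plus strand: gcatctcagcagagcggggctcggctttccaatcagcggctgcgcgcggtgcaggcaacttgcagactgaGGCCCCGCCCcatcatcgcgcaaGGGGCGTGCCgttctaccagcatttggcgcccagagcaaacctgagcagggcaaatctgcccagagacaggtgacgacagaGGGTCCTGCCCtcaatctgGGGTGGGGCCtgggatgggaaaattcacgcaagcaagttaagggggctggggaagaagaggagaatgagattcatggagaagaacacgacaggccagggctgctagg
Psmb8, chr17:34197945-34198244, plus strand: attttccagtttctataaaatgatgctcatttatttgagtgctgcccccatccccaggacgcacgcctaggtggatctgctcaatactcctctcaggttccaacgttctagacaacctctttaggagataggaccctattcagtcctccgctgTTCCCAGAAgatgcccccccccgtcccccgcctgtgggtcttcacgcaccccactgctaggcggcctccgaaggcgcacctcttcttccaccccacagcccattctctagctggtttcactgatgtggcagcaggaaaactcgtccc

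H2-K1 and H2-D1 had in common the kB run GGGGATTCCCC, and TGACGC started 70 bases after the start of that run in both genes. This run was picked after the sequences were seen. On either strand it occurred in 10 of 32851 windows (0.03%), which belong to 9 genes, among them another class I heavy chain, H2-Q6. The B2m window had 1 ISRE match, at position -139 from the start, and kB matches on both sides of it. Psmb8 had 1 GAS match, at position -97, and no other match. Tap1 and Psmb9 are divergent neighbours: their RefSeq starts lie 226 bases apart on opposite strands, their windows have 275 bases in common, and both held kB matches only. The windows of Tapbp and Psmb10 held none of the 4 motifs. A match describes the letters of a window and is not a measured binding site. The patterns were matched letter by letter, so a variant of an element goes unmarked. A window without a match, such as those of H2-K1 and H2-D1 for the ISRE, may still hold one.

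On build mm10, 7 of the 10 genes lie on chromosome 17 in the MHC region, from Tapbp (chr17:33915899-33929288) at one end to H2-D1 (chr17:35262730-35267499) at the other. H2-K1 is at chr17:33996017-34000333. Psmb9 (chr17:34181988-34187764), Tap1 (chr17:34187553-34197225), Psmb8 (chr17:34197721-34201454) and Tap2 (chr17:34203527-34216321) follow one another within 34334 bases. B2m is on chromosome 2 (chr2:122147686-122153083), and Psmb10 (chr8:105935735-105938444) and Nlrc5 (chr8:94434356-94527272) are on chromosome 8.

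The first question was whether cells exposed to oAb or fAb differ from scramble cells in these genes. Each of the 10 genes was higher in all 4 oAb and all 4 fAb libraries than in any of the 4 scramble libraries. The transporter genes Tap1 and Tap2 had the largest estimated factors, and the heavy chains and B2m the smallest. Together the 10 genes summed to 6713 to 7488 TPM in oAb libraries, 6883 to 7004 TPM in fAb libraries and 3330 to 3708 TPM in scramble libraries.

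B2m, the invariant light chain, was the most abundant of the 10. Its levels were 4135, 4069.8, 4084 and 4125 TPM in oAb libraries, 4199.6, 4309.5, 4187 and 4029 TPM in fAb libraries, and 2189.9, 2093, 2166 and 2103 TPM in scramble libraries. The groups' means were 4103 ± 31.5, 4181 ± 115 and 2138 ± 47.5 TPM (SD, n = 4 each), so B2m varied little within a group and was nearly doubled in both treatments. By mean TPM it ranked 23rd of all genes in oAb cells, 22nd in fAb cells and 55th in scramble cells.

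H2-D1, a classical heavy chain, had 1235, 1222, 931 and 1075 TPM in oAb libraries, 1005, 940.0, 1005 and 1042 TPM in fAb libraries, and 545, 677, 750.4 and 677 TPM in scramble libraries. H2-K1, the other classical heavy chain, had 848, 831, 642 and 696 TPM in oAb libraries, 729.7, 683, 694 and 700.0 TPM in fAb libraries, and 375, 462, 482 and 430.1 TPM in scramble libraries. Both chains were lowest in the same library of each group, oAb 3, fAb 2 and scramble 1. Their oAb levels split by library set, with the Timm23 libraries oAb 1 and 2 above the Gm10273 libraries oAb 3 and 4. Of the 50-base words in their transcripts, 12.8% (H2-D1) and 9.63% (H2-K1) also occur in other genes, chiefly other H2 genes, so the division of counts within this family is uncertain.

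The peptide transporter stood out in size of change. Tap1 had 81.7, 84.7, 78.1 and 89.7 TPM in oAb libraries, 74.9, 68.6, 83.4 and 81.8 TPM in fAb libraries, and 9.40, 7.81, 9.11 and 9.88 TPM in scramble libraries. Tap2, the other chain of the transporter, had 73.8, 78.4, 56.2 and 67.8 TPM in oAb libraries, 57.9, 44.7, 61.2 and 63.4 TPM in fAb libraries, and 8.36, 9.60, 11.4 and 12.0 TPM in scramble libraries. In scramble cells both were near 10 TPM, ranking 7710th (Tap1) and 7408th (Tap2) by mean level, and in oAb cells they ranked 1712th and 2067th. Tapbp, whose product tapasin ties the transporter to the empty class I molecule, had 551, 532, 437 and 486 TPM in oAb libraries, 419, 387, 450.0 and 459.7 TPM in fAb libraries, and 82.8, 109.9, 113 and 119 TPM in scramble libraries. Its lowest fAb library was more than 3 times its highest scramble library. Antisense genes cover 24.9% of the exon bases of Tapbp and 18.5% of those of Tap2, and no source at hand says whether strand was used in counting.

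The immunoproteasome subunits were all present at rest and higher in both treatments. Psmb8 had 178, 181, 171 and 179 TPM in oAb libraries, 164, 168, 171 and 164 TPM in fAb libraries, and 40.1, 40.7, 58.3 and 46.0 TPM in scramble libraries. Psmb9, the least abundant of the subunits, had 34.9, 35.5, 30.5 and 32.7 TPM in oAb libraries, 32.9, 29.0, 33.6 and 30.6 TPM in fAb libraries, and 7.54, 7.20, 9.25 and 7.58 TPM in scramble libraries. Psmb10, the most abundant, had 305, 329, 242 and 311 TPM in oAb libraries, 234, 202, 273 and 272 TPM in fAb libraries, and 55.3, 67.3, 104 and 70.8 TPM in scramble libraries. Scramble 3, the control that stood apart, was the highest control for all of Psmb8, Psmb9 and Psmb10. Antisense Gm20496 covers 14.7% of the exon bases of Psmb8.

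Nlrc5, the transactivator, had 44.8, 39.4, 42.3 and 45.2 TPM in oAb libraries, 54.6, 50.7, 45.2 and 45.1 TPM in fAb libraries, and 15.9, 12.0, 4.36 and 9.80 TPM in scramble libraries. Its controls spread more, relative to their mean of 10.5 ± 4.81 TPM, than those of any other of the 10 genes, and scramble 3 was here the lowest. Even the highest control, scramble 1, lay well under the lowest oAb library.

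**Figure D1:**
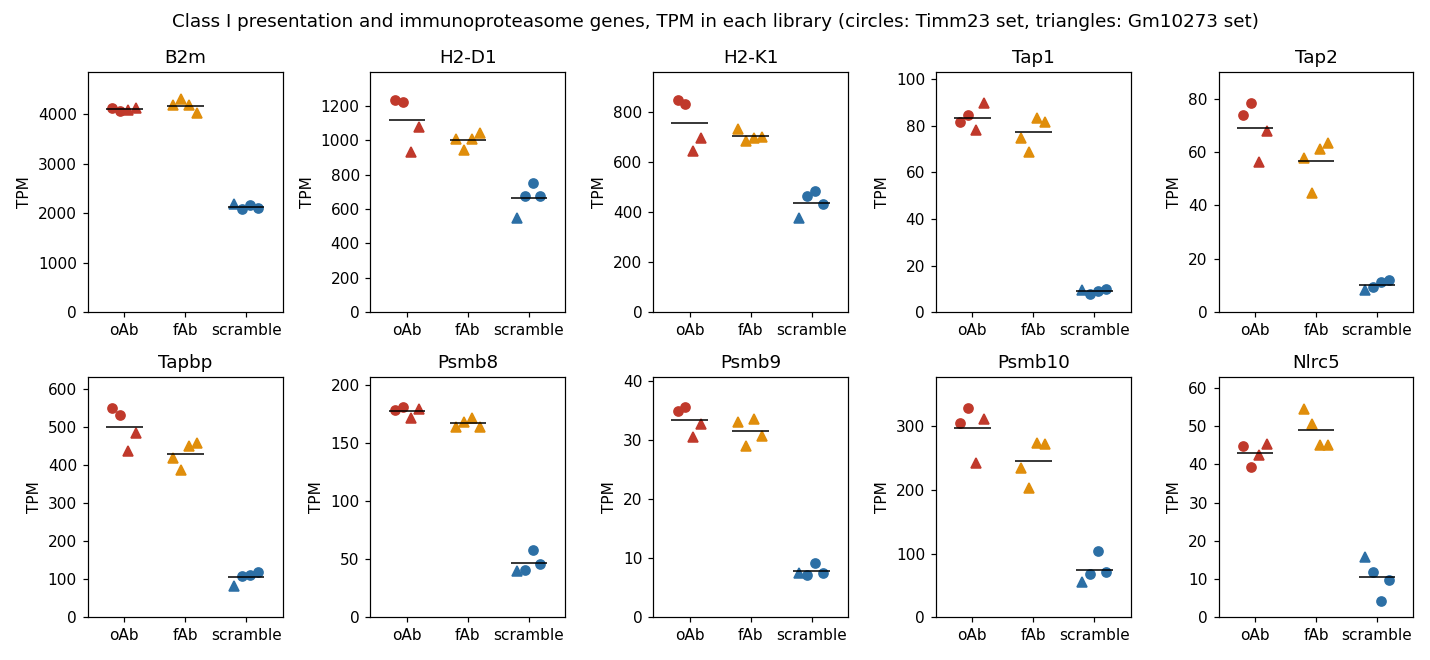
Level of each of the 10 genes in TPM (y axis, starting at 0, a scale of its own for each gene) in the 4 oAb, 4 fAb and 4 scramble libraries (x axis). Each point is a library, circles for the Timm23 set and triangles for the Gm10273 set, and the line is the group mean. In every panel all 8 treated libraries lie above the 4 scramble libraries.

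In edgeR's quasi-likelihood test over all genes, called at a Benjamini-Hochberg adjusted p under 0.05, all 10 genes were higher in oAb than in scramble cells, where 25.2% of the 11033 genes tested were called higher. All 10 were also higher in fAb than in scramble cells, against 27.6% of 11074 genes tested. Groups that do not overlap, with every treated library above every control, were seen for 10 of 10 genes in both comparisons, against 18.6% of tested genes with oAb and 21.1% with fAb. The 10 genes' median log2 fold change was 2.18 in oAb and 2.02 in fAb cells, beside -0.07 and -0.04 over all genes tested. Since the 2 comparisons have their controls in common, they are not independent of each other.

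Tap1 had the largest change, a log2 fold change of 3.38 ± 0.14 (SE; edgeR adjusted p = 9.59e-08) in oAb and 3.22 ± 0.16 (adjusted p = 3.24e-07) in fAb cells, or 10.4-fold and 9.29-fold. Tap2 followed with 2.90 ± 0.20 in oAb cells and 2.57 ± 0.22 in fAb cells, and Tapbp had 2.40 ± 0.18 and 2.13 ± 0.19. The immunoproteasome subunits lay close together. Psmb9 had a log2 fold change of 2.23 ± 0.18 in oAb and 2.10 ± 0.18 in fAb cells, Psmb10 of 2.12 ± 0.27 and 1.80 ± 0.29, and Psmb8 of 2.08 ± 0.21 and 1.94 ± 0.21. Nlrc5 had 2.27 ± 0.25 and 2.41 ± 0.25, in fAb cells the estimate next below that of Tap2. That rank did not hold without scramble 3, where Nlrc5 in fAb cells had 2.20, below Psmb9 (2.32), Tapbp (2.28) and Psmb8 (2.22). Within the Gm10273 set it had 1.93. Nlrc5 was the only one of the 10 whose estimate was higher in fAb than in oAb cells.

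The class I chains rose by less. B2m had a log2 fold change of 1.11 ± 0.12 in oAb cells (edgeR adjusted p = 5.29e-05) and 1.09 ± 0.12 in fAb cells (adjusted p = 6.55e-05). H2-K1 had 0.94 ± 0.17 in oAb and 0.79 ± 0.16 in fAb cells, and H2-D1 had 0.90 ± 0.19 (edgeR adjusted p = 0.0029) and 0.69 ± 0.18 (adjusted p = 0.00986), which are the weakest calls among the 10 genes. Tested against a minimum fold of 1.5, H2-D1 in oAb cells and both heavy chains in fAb cells no longer passed. The most abundant of the 10 genes therefore had the smallest factors, while B2m gained most in TPM: its mean was 4103 TPM in oAb against 2138 TPM in scramble cells, and that of Tap1 was 83.5 TPM in oAb against 9.05 TPM in scramble cells.

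The authors' deposited table gives log2 fold changes of 0.92 (H2-D1) to 3.40 (Tap1) for oAb and 0.69 (H2-D1) to 3.22 (Tap1) for fAb. The changes were also present within the library sets. In the Timm23 set, 2 oAb libraries against 3 controls gave log2 fold changes of 0.90 (H2-D1) to 3.32 (Tap1), each past the threshold in edgeR. In the Gm10273 set, where scramble 1 is the single control and is assumed to vary like the other libraries, 2 oAb libraries gave 1.23 (H2-K1) to 3.55 (Tap1) and 4 fAb libraries gave 1.19 (H2-D1) to 3.35 (Tap1).

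**Figure D2:**
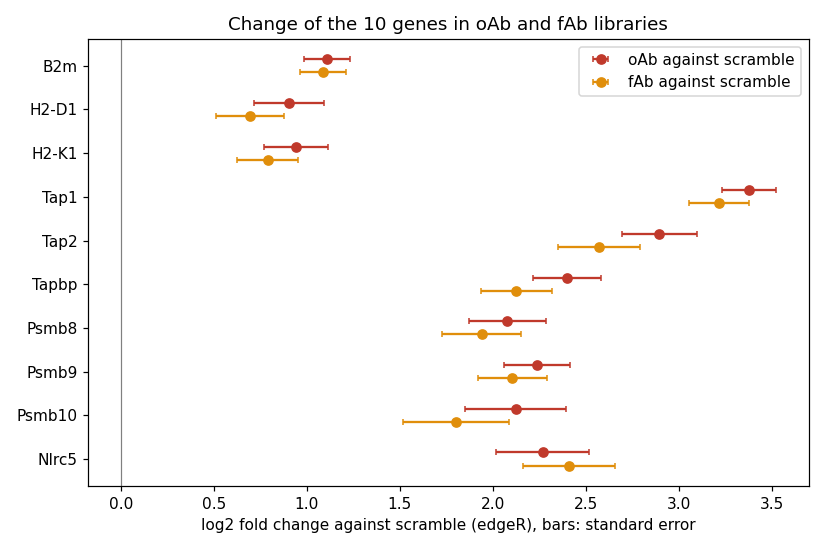
Log2 fold change (x axis, edgeR, bars are 1 standard error) of each of the 10 genes (y axis) in oAb and in fAb against scramble libraries, 4 libraries a group. Tap1 lies farthest to the right, at 3.38 in oAb and 3.22 in fAb, and H2-D1 nearest to 0, at 0.90 and 0.69.

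The RNA of each pair of exchangeable proteasome subunits can be read as a ratio of levels inside each library, which does not depend on scaling between libraries. Such a ratio is of RNA only, and the subunits built into proteasomes were not measured. Of the constitutive subunits, 2 of 3 were called higher with both treatments, against 25.2% of all genes called higher in oAb and 27.6% in fAb cells. With 3 genes little can be read from this count. Psmb5, the chymotrypsin-like subunit that Psmb8 replaces, averaged 506 ± 29.6 TPM in oAb, 473 ± 18.1 TPM in fAb and 449 ± 81.0 TPM in scramble cells, and it did not pass the test in either comparison (log2 fold change 0.31 ± 0.20, edgeR adjusted p = 0.225 in oAb; 0.17 ± 0.21, adjusted p = 0.527 in fAb). Without scramble 3, Psmb5 was called higher in both, at 0.58 and 0.44. Of its transcript words, 54.1% also occur in other genes, among them Mir686, which overlaps Psmb5. Psmb6, the caspase-like subunit that Psmb9 replaces, rose by 0.75 ± 0.19 in oAb (edgeR adjusted p = 0.00957) and 0.70 ± 0.20 in fAb cells. Psmb7, the trypsin-like subunit that Psmb10 replaces, rose by 0.43 ± 0.14 in oAb (edgeR adjusted p = 0.0278) and 0.52 ± 0.13 in fAb cells, and the oAb call was lost when any of 6 of the 8 libraries was left out.

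Psmb8 stood to Psmb5 as 0.351 ± 0.0141 in oAb, 0.353 ± 0.0173 in fAb and 0.103 ± 0.0041 in scramble cells (ratio of TPM, SD, n = 4 each). The ratio of Psmb9 to Psmb6 was 0.0854 ± 0.0037 in oAb, 0.0809 ± 0.0041 in fAb and 0.0309 ± 0.0015 in scramble cells. The ratio of Psmb10 to Psmb7 was 2.16 ± 0.364 in oAb, 1.62 ± 0.254 in fAb and 0.646 ± 0.165 in scramble cells. For all 3 pairs no treated library overlapped a control. As a share of the pair's summed TPM, Psmb8 made up 26.0% in oAb, 26.1% in fAb and 9.36% in scramble cells, Psmb9 7.87%, 7.48% and 3.00%, and Psmb10 68.1%, 61.5% and 38.8%. By TPM, which rests on gene length, Psmb10 was the larger part of its pair in treated cells and the smaller part in scramble cells. Psmb8 and Psmb9 were the smaller part of theirs in all groups. In raw counts, which are not scaled by length, the order differed. Psmb10 then lay below Psmb7 in every fAb library and in oAb 3. Psmb8 lay above Psmb5 in every oAb library and in fAb 1, 2 and 3.

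On the log2 scale the Psmb8 to Psmb5 ratio differed by 1.76 ± 0.04 in oAb and 1.77 ± 0.05 in fAb against scramble cells (difference ± SE). The Psmb9 to Psmb6 ratio differed by 1.45 ± 0.05 in oAb and 1.37 ± 0.05 in fAb cells, and the Psmb10 to Psmb7 ratio by 1.76 ± 0.23 and 1.34 ± 0.22. Each gave p = 0.0286 in a two-sided exact permutation test, the smallest that 4 libraries against 4 allow, and 0.0612 after adjustment over the 15 ratio tests made, so none passes 0.05 once adjusted. The scatter of the Psmb8 to Psmb5 ratio was much smaller than that of either gene in scramble cells: scramble 3, at 58.3 TPM the highest control for Psmb8, was also the highest for Psmb5. The Psmb10 to Psmb7 ratio moved with the library set. In oAb libraries it was 2.39 to 2.47 in the Timm23 set and 1.66 to 2.13 in the Gm10273 set. In scramble libraries it was 0.601 to 0.851 and 0.455. Its log2 difference from scramble was 1.79 and 2.05 in oAb within these sets. For fAb within the Gm10273 set it was 1.81. The part of the library set in this ratio was not tested.

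Within the transporter and the class I molecule the ratios moved with the library set. Tap1 stood to Tap2 as 1.23 ± 0.154 in oAb, 1.37 ± 0.115 in fAb and 0.890 ± 0.156 in scramble cells, with log2 differences of 0.47 ± 0.15 in oAb (exact permutation p = 0.0857) and 0.63 ± 0.13 in fAb (exact permutation p = 0.0286). The ratio was 1.08 to 1.11 in the oAb and 0.798 to 0.826 in the scramble libraries of the Timm23 set. In the Gm10273 set it was 1.32 to 1.39 in oAb, 1.29 to 1.54 in fAb and 1.12 in scramble 1. Within the sets the log2 difference was 0.43 and 0.27 in oAb and 0.28 in fAb. B2m stood to the sum of both heavy chains as 2.22 ± 0.297 in oAb, 2.46 ± 0.143 in fAb and 1.97 ± 0.280 in scramble cells (exact permutation p = 0.2 for oAb and 0.0571 for fAb), and its difference in fAb, 0.33 ± 0.11 on the log2 scale, was 0.05 within the Gm10273 set. The part of the library set in these ratios was not tested.

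**Figure D3:**
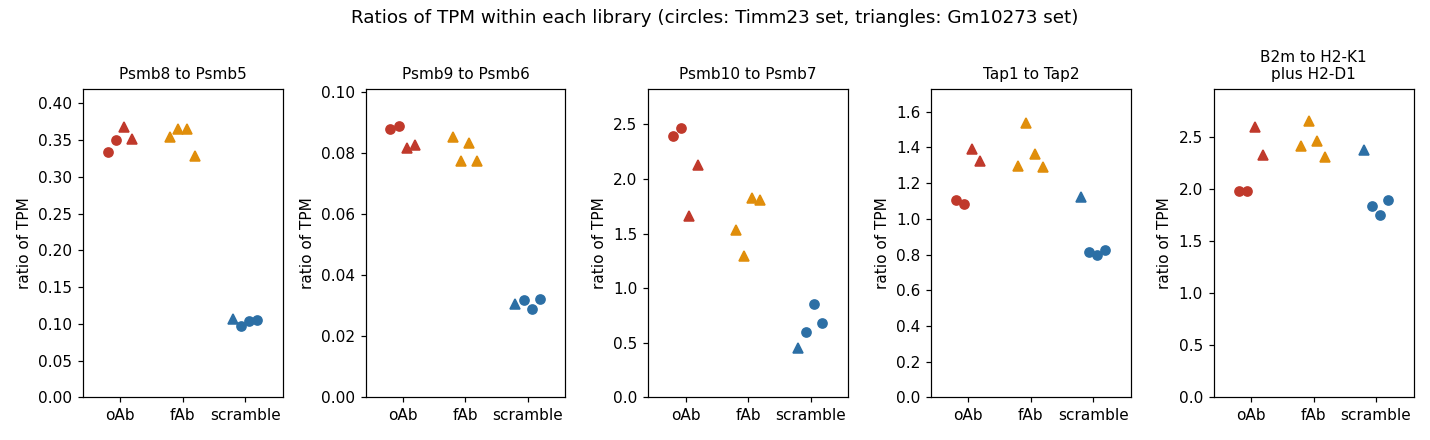
Ratio of TPM of the named genes within each library (y axis, starting at 0, a scale of its own for each ratio) in the 4 oAb, 4 fAb and 4 scramble libraries (x axis), with circles for the Timm23 set and triangles for the Gm10273 set. The subunit ratios at the left separate treated from scramble libraries, with Psmb8 to Psmb5 at 0.328 to 0.368 in treated libraries and at most 0.107 in scramble libraries. Within oAb and within scramble libraries, the Psmb10 to Psmb7, Tap and B2m ratios also separate circles from triangles.

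The next question was whether fAb and oAb cells differ from each other. None of the 10 genes passed the test, in a comparison in which edgeR called 0 of 10878 genes (0%), limma voom 0 (0%) and DESeq2 16 (0.147%), with 1391 genes (12.8%) at an unadjusted p under 0.05. For 9 of the 10 genes the estimate was below 0, lower in fAb, as it was for 51.8% of all genes tested, and for none of the 10 did the 2 groups separate (against 8.75% of genes tested with every fAb library above every oAb library and 0.846% with every one below). The median log2 fold change of the 10 genes was -0.19, beside -0.01 over all genes tested. The largest estimates were those of Tap2, -0.36 ± 0.14, Psmb10, -0.35 ± 0.14, and Tapbp, -0.30 ± 0.09, each with an edgeR adjusted p of 0.375.

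An unadjusted p under 0.05 with a lower level in fAb was found for 8 of the 10, all but B2m and Nlrc5, and for 8% of all genes tested. The 95% intervals of the fold, fAb over oAb, were 0.901 to 1.03 for B2m, 0.643 to 0.949 for Tap2, 0.832 to 0.949 for Psmb8 and 0.990 to 1.16 for Nlrc5, and these missed calls do not show that the preparations act alike. All 4 fAb libraries are in the Gm10273 set. Against the 2 oAb libraries of that set, the log2 fold change was -0.09 for H2-D1 and -0.02 for H2-K1, beside -0.24 and -0.18 over all 8 libraries, and it was -0.21 for Tap1, -0.21 for Tap2 and -0.16 for Psmb8. The ratio of Psmb10 to Psmb7, at 1.62 in fAb and 2.16 in oAb cells, gave the smallest p of the 5 ratios in this comparison (exact permutation p = 0.0857), and its log2 difference of -0.42 over all 8 libraries was -0.23 within the Gm10273 set.

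**Figure D4:**
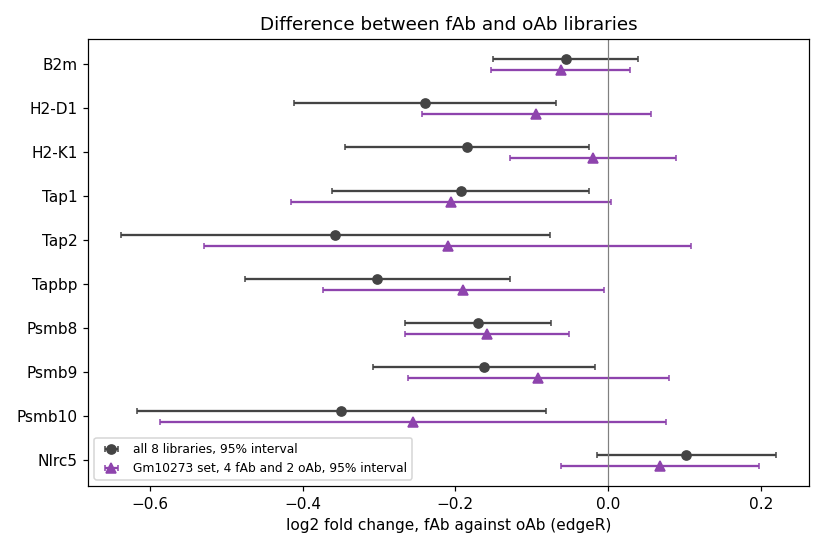
Log2 fold change of fAb against oAb (x axis, edgeR) for each of the 10 genes (y axis), with 95% intervals, over all 8 libraries (dark circles) and over the 6 libraries of the Gm10273 set (purple triangles). Most estimates lie below 0, and those of H2-D1 and H2-K1 move from -0.24 and -0.18 to -0.09 and -0.02 within the set.

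The regulators known to act on these genes were listed as 23 genes, of which 22 were tested. In oAb cells 10 were higher, 3 lower and 9 not past the threshold, and in fAb cells 11 were higher, 5 lower and 6 not past it. Beside these, 25.2% of all genes tested were called higher and 27% lower in oAb cells, and 27.6% higher and 28.8% lower in fAb cells. Irf9, the DNA-binding subunit of the interferon-activated complex that binds the ISRE, rose by 2.41 ± 0.10 in oAb (edgeR adjusted p = 6.95e-08) and 2.46 ± 0.08 in fAb cells. Irf1, a factor that binds the same kind of site, averaged 52.1 ± 2.99 TPM in oAb, 58.6 ± 4.51 TPM in fAb and 16.5 ± 2.99 TPM in scramble cells and rose by 1.85 ± 0.09 in oAb and 1.98 ± 0.09 in fAb cells.

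The members of the list that fell were Ifngr1, Irf2 and Rfx5 with both treatments, and Irf8 and Rfxap with fAb. Ifngr1, a chain of the interferon-gamma receptor, had a log2 fold change of -1.25 ± 0.08 in oAb and -1.22 ± 0.08 in fAb cells. Rfx5, a subunit of the complex through which Nlrc5 reaches class I promoters, had -0.68 ± 0.14 in oAb (edgeR adjusted p = 0.00238) and -0.62 ± 0.13 in fAb cells, while Nlrc5 itself rose. The scramble libraries of Rfx5 averaged 21.2 ± 6.12 TPM, against 11.4 ± 0.491 TPM in oAb and 12.3 ± 1.18 TPM in fAb libraries. Ciita, the class II transactivator and a relative of Nlrc5, was too low to be tested, at 0.131 TPM in oAb, 0.134 TPM in fAb and 0.190 TPM in scramble cells.

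Of the 22 other class I heavy chain genes listed, 21 had a row and 13 were tested. With both treatments 10 of these rose and 3 fell, where 25.2% of all genes tested were called higher and 27% lower in oAb, and 27.6% and 28.8% in fAb cells. The scramble libraries held 1 to 6 counts of H2-M2, 0 to 1 of H2-T10 and 1 to 10 of H2-Q6. These genes could pass the minimum count filter only through their treated libraries, which all but fixed a call as higher. The count of 10 therefore cannot be weighed fully against those shares. H2-T24, a nonclassical chain, averaged 64.3 ± 2.02 TPM in oAb, 72.9 ± 5.98 TPM in fAb and 1.31 ± 0.198 TPM in scramble cells, a log2 fold change of 5.80 ± 0.11 in oAb (edgeR adjusted p = 9.35e-10) and 5.93 ± 0.11 in fAb cells. H2-M2 averaged 20.7 ± 2.92 TPM in oAb, 22.8 ± 4.49 TPM in fAb and 0.457 ± 0.285 TPM in scramble cells, a log2 fold change of 5.67 ± 0.29 and 5.76 ± 0.30. H2-T22, a nonclassical chain seen by gamma delta T cells, had 2.76 ± 0.15 in oAb and 2.66 ± 0.15 in fAb cells, and 34.5% of its transcript words also occur in other genes. These factors are larger than those of H2-K1 and H2-D1, from levels that were much lower at rest. The 3 that fell were named after their values were seen. Fcgrt, the neonatal Fc receptor, had -2.41 ± 0.26 in oAb and -2.32 ± 0.31 in fAb cells. Hfe, a regulator of iron uptake, had -1.64 ± 0.14 and -1.70 ± 0.13. Mr1, which presents vitamin metabolites, had -1.13 ± 0.21 and -0.99 ± 0.22.

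Of 16 tested genes for the loading, trimming and recycling of class I, 12 rose, 0 fell and 4 did not pass with either treatment, against 25.2% of all genes called higher in oAb and 27.6% in fAb cells. Their median log2 fold change was 0.59 in oAb and 0.62 in fAb cells, beside -0.07 and -0.04 over all genes tested. Tapbpl, the tapasin-related editor of bound peptides, averaged 32.2 ± 1.05 TPM in oAb, 29.3 ± 0.836 TPM in fAb and 7.09 ± 0.434 TPM in scramble cells, with log2 fold changes of 2.36 ± 0.11 and 2.17 ± 0.11, close to those of Tapbp. Sec61a1, the pore of the endoplasmic reticulum, rose by 1.05 ± 0.10 in oAb and 1.07 ± 0.10 in fAb cells, and Pdia6, a disulphide isomerase of the same compartment, by 0.96 ± 0.11 and 1.03 ± 0.11.

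Of 11 other core subunits of the proteasome, 5 rose and 0 fell with either treatment, against 25.2% of all genes called higher in oAb and 27.6% in fAb cells, so with so few genes little can be read from the count. Their median log2 fold change was 0.30 in oAb and 0.27 in fAb cells. Psma6 was the largest, at 1.28 ± 0.15 in oAb and 1.28 ± 0.14 in fAb cells, and Psma4 and Psma2, also of the outer alpha ring, rose by 0.66 ± 0.11 and 0.64 ± 0.14 in oAb cells. Of 10 activator and assembly genes, 5 rose and 1 fell with either treatment, beside the same shares over all genes. Psme2, a subunit of the interferon-inducible activator cap, averaged 513 ± 37.2 TPM in oAb, 536 ± 32.4 TPM in fAb and 165 ± 32.2 TPM in scramble cells and rose by 1.78 ± 0.22 in oAb and 1.79 ± 0.22 in fAb cells, with 28.3% of its transcript words also in other genes. Psme3, of the nuclear cap, rose by 0.45 ± 0.07 and 0.43 ± 0.07, and Psmg2, an assembly chaperone of the core, had -0.66 ± 0.13 in oAb and -0.59 ± 0.14 in fAb cells. In fAb against oAb, no gene of any of these lists passed the test.

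**Figure D5:**
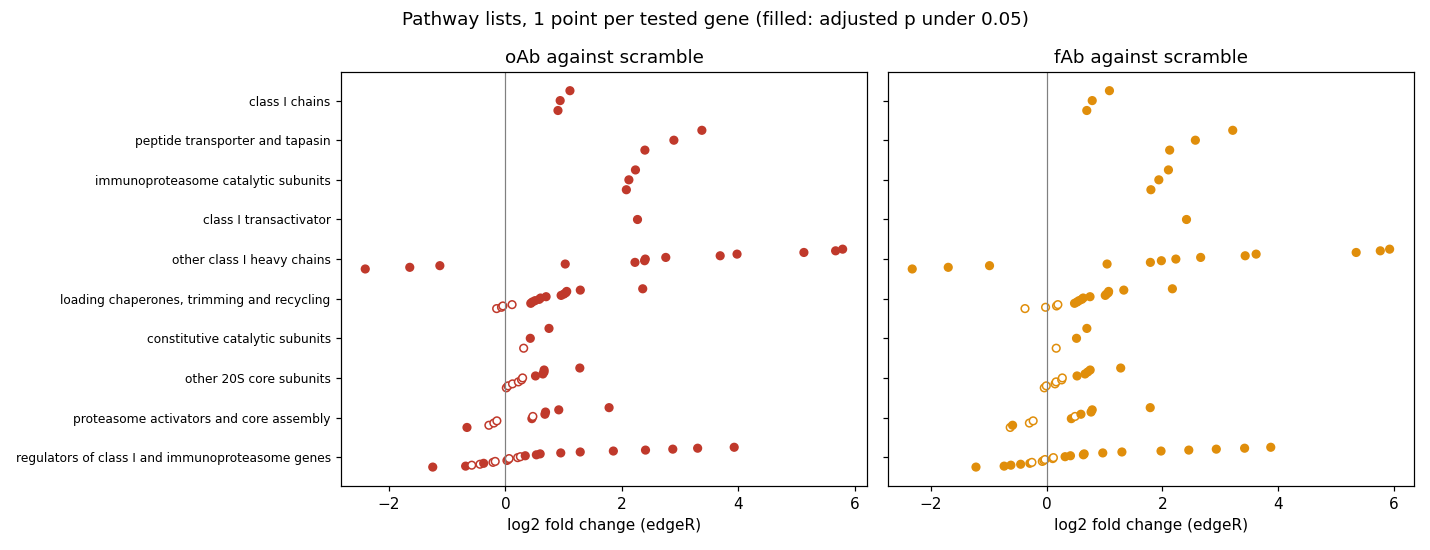
Log2 fold change (x axis, edgeR) in oAb (left) and fAb (right) against scramble libraries for every tested gene of each list (y axis), 1 point per gene, filled where the adjusted p is under 0.05. The 10 genes fill the upper 4 rows and all lie to the right of 0, other heavy chains reach from -2.41 to 5.80 in oAb, and core proteasome subunits lie mostly between 0 and 1.28.

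The other genes of 1 stretch of the MHC region, from Tapbp to H2-D1, were counted for comparison. The H2-Q, H2-T and H2-M heavy chain genes listed above lie beyond H2-D1 and are not among them. Between the outermost of the 7 genes on chromosome 17 (chr17:33915899-35267499) the deposited tables hold 127 genes. Of the other genes there that were tested, 12 of 55 (21.8%) were higher and 14 lower in oAb cells, and 10 of 52 (19.2%) higher and 15 lower in fAb cells. Over all genes tested, 25.2% were called higher and 27% lower in oAb cells, and 27.6% higher and 28.8% lower in fAb cells. The shares called higher in this stretch were thus not above those over all genes. Their median log2 fold changes were -0.03 and -0.17, beside -0.07 and -0.04 over all genes tested.

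Single libraries were often the lowest of their group for several of the 10 genes. In oAb libraries, oAb 3 was the lowest for 8 of the 10, all but B2m and Nlrc5, as it was for 34.5% of all genes tested. In fAb libraries fAb 2 was the lowest for 7 and the highest for B2m, beside 20.6% of all genes for which it was the lowest. In scramble libraries, scramble 1 was the lowest for 6 and the highest for B2m and Nlrc5, and it was the lowest for 16.8% of all genes tested. Scramble 3 was the highest for 5 and the lowest for Nlrc5, beside 17.6% of all genes for which it was the highest. Over all genes tested, scramble 3 was the lowest control for 64.4% and scramble 1 the highest for 54%. In the same way fAb 2 was the highest fAb library for 40.9%.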

How the data were processed

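Per the labels' protocols, each of the 12 libraries was made from 2 ug of spin-column total RNA of IMG cells with a stranded mRNA kit. Per the file headers the reads were trimmed. Per the submitters' processing notes the genome build is mm10. No aligner, counter or use of strand was given in the sources at hand. The authors deposited 2 tables of 41325 genes, with identical control counts in both. They hold whole-number counts, RPKM (by length and depth) and TPM (summing to 1000000 per library), per the file headers. The deposited columns headed CPM do not sum to 1000000, were taken as a signal and were not used, nor was the authors' signed fold change, a deposited score. The authors' log2 fold changes and p-values come from a test that no source at hand names.

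Samples were grouped by their titles and treatment labels. Counts of each pair of groups (4 libraries each) were tested in edgeR 4.0.16 (R 4.3.3), with filterByExpr at a minimum count of 10, TMM scaling, a robust two-sided quasi-likelihood F test, Benjamini-Hochberg adjustment over all genes and a threshold of 0.05. The script was tested on simulated counts. DESeq2 1.42.0, limma 3.58.1 (voom), other scalings, filters, designs and left-out libraries were alternatives. Ratios are of TPM with a pseudocount of 0.1 TPM on the log2 scale, with an exact permutation test in scipy 1.17.1. The members and lists were chosen with earlier results of these data known. Named genes are the 10 members, Psmb5, Psmb6, Psmb7, Irf1, Rfx5 and Ciita, and the 3 smallest adjusted p in oAb against scramble of each other list, with at least 2 TPM in a group. Ifngr1, Fcgrt, Hfe, Mr1 and the lower members of the lists were named after their values were seen. Another gene that the rule names is not reported here. The listed genes H2-T9 and Nrdc had no matching row. Shared sequence is the share of 50-base words of a gene's transcripts that also occur in another gene.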

Additional observations from a re-analysis of the deposited data

Results flagged for a closer look

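In 45 groups of 4 libraries examined for a library far from the rest, 1 was found, where chance gives about 1 in 20. The ratio of Tap1 to Tap2 TPM was 1.1239 in scramble 1, against 0.798 to 0.826 in the other 3 scramble libraries. Scramble 1 is the only control of the Gm10273 set, in which the ratio was 1.32 to 1.39 in the oAb and 1.29 to 1.54 in the fAb libraries. The part of the library set in this value was not tested.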

How the results depend on the processing

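All 10 genes kept their direction and their edgeR call against scramble in both treatments under every scaling, filter, tool and design tried, within the library sets and with each library left out, except with a minimum fold of 1.5, where 9 of 10 passed in oAb (H2-D1 adjusted p = 0.0721) and 8 of 10 in fAb (H2-D1 0.313, H2-K1 0.133). Over these settings the log2 fold change of Tap1 ran from 3.21 to 3.55 in oAb and from 3.03 to 3.35 in fAb, and that of H2-D1 from 0.73 to 1.27 and from 0.51 to 1.19. In fAb against oAb, 0 of the 10 genes passed in any setting. Titles give the groups the same replicate numbers. Same-numbered libraries deviated together with correlations of -0.25 to 0.08 (oAb and scramble), 0.09 to 0.20 (fAb and scramble) and -0.23 to 0.24 (fAb and oAb). With 4 libraries a group, such low correlations cannot decide whether a number marks a shared culture or day. With the replicate as a block the counts of the 10 genes called were 10, 10 and 0. With upper quartile scaling the median over all genes was -0.24 in oAb and -0.23 in fAb, and the calls were 2127 higher and 4015 lower in oAb, against 2777 and 2984 with TMM, and 2273 and 4361 in fAb, against 3051 and 3184; under it the log2 fold change of Psmb5, fAb against scramble, was -0.0219 (adjusted p = 0.935), against 0.17. Ratios whose groups do not overlap numbered 3 of 5 in oAb and 4 of 5 in fAb against scramble, and 0 of 5 in fAb against oAb. Leaving out a library can only keep or raise such a count, so its lower end was fixed in advance. The counts ran from 3 to 5 in oAb (5 without scramble 1) and from 4 to 5 in fAb. In fAb against oAb they ran from 0 to 1 (1 without oAb 3). The split into library sets was not used as a term in the fAb comparisons, where no fAb library is in the Timm23 set.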
